A study of Mus musculus with 12 samples.

Results

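The αV integrin subunit and the β subunits that can pair with it were followed in mouse lens cells (LCs) after removal of the lens fiber cells. The genes were chosen by name: Itgav, which encodes αV, and Itgb1, Itgb3, Itgb5, Itgb6 and Itgb8, which encode its 5 β partners. All 6 genes were found on 1 row each among the 45859 genes measured. RNA came from lens capsules with their attached LCs, taken from adult mice 2 months old after surgery that mimics cataract extraction, either at once (0 h PCS, post cataract surgery) or 24 h later (24 h PCS). The 4 groups were WT 0 h, WT 24 h, β8ITG-cKO 0 h and β8ITG-cKO 24 h, each with 3 libraries made from separate pools of capsules, 12 in all. The WT mice were C57BL/6. The β8ITG-cKO mice were on a mixed C57BL/6 and 129S1/Sv background and carried a floxed Itgb8 allele that the MLR10-Cre transgene deletes in the lens, from the lens vesicle stage on. Strain, Cre and loss of Itgb8 differ together between the genotypes and cannot be told apart in any comparison between them. The Cre acts in LCs, so other cells attached to a capsule would keep an intact Itgb8.

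An integrin is a pair of an α and a β subunit at the cell surface that binds matrix or other ligands outside the cell and links to actin inside it. The αV subunit reaches the cell surface only in such a pair, and its β partner decides which ligands the pair prefers. The pairs of αV with β1, β3 and β5 are known as receptors for fibronectin and vitronectin, whereas those with β6 and β8 are best known for binding the latency peptide of TGF-β1 and TGF-β3 and so releasing active TGF-β, the cytokine that turns LCs into myofibroblasts in posterior capsular opacification. The β1 subunit also pairs with many other α subunits, so the level of Itgb1 is not a measure of αVβ1 alone. In contrast, β5, β6 and β8 are known to pair with αV only. The study asked which αV heterodimer LCs need for their fibrotic response, with αVβ8 as its candidate.

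Expression was measured as FPKM (fragments per gene, scaled by exon length and by the fragments mapped in the library), a level per length that can be compared between genes. Summed FPKM ran from 446531 to 740140 per library, and relative depth, read from the steps between low FPKM values, from 0.88 to 1.1. The read counts behind the FPKM are unknown here, so no counting error can be given. The lens epithelial genes Pax6 (59.9 to 93.49 FPKM), Foxe3 (25.46 to 172.17 FPKM) and Cdh1 (37.66 to 98.31 FPKM) were present in every library. The FPKM of 10 corneal epithelium markers summed to 525 to 639 in the WT 0 h libraries, 316 to 592 in WT 24 h, 1020 to 1460 in β8ITG-cKO 0 h and 272 to 356 in β8ITG-cKO 24 h. Most of each sum came from Aldh3a1 and Tkt, with group means of 157 to 734 and 158 to 519 FPKM, while the keratin genes Krt12 and Krt5 reached no more than 4.62 and 6.88 FPKM. The endothelial genes Pecam1 and Cdh5 reached no more than 1.64 and 1.7 FPKM. Photoreceptor genes stood apart: the FPKM of 15 photoreceptor markers summed to 411, 1390 and 169 in the WT 0 h libraries, 89.2, 154 and 165 in WT 24 h, 397, 216 and 317 in β8ITG-cKO 0 h, and 1170, 991 and 1170 in β8ITG-cKO 24 h. WT 0 h replicate 2 and all 3 β8ITG-cKO 24 h libraries are thus the ones with the most photoreceptor RNA, and none of the 15 markers was at 0 throughout any group.

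The floxed segment of Itgb8 is named as exon 4. It was taken here as the fourth exon of the main transcript in GENCODE, and the study's exon numbering was not compared with that one. In the GENCODE M21 annotation of GRCm38, the build of the files, exon 4 of the main transcript lies at chr12:119192081-119192327 on the minus strand, inside the coding sequence. It is 247 bases long, of 14 exons in all. It is printed here as the exon taken to be lost in β8ITG-cKO LCs. Capitals mark exon 4, and lower case the 12 bases of exon 3 before it and of exon 5 after it.
Itgb8 exon 4: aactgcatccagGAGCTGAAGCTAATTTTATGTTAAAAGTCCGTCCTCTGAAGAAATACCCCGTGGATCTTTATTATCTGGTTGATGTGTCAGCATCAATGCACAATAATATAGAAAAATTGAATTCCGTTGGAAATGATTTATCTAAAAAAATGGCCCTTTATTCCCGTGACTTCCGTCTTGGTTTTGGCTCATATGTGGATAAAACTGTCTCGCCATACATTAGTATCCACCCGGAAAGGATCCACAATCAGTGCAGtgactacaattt
Since 247 is not a multiple of 3, joining exon 3 to exon 5 shifts the reading frame. In the joined sequence a stop codon, in capitals, ends 14 bases past the junction.
Itgb8 exon 3 to exon 5 junction: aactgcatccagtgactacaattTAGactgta
Exon 4 makes up 7.98% of the 3096 exonic bases of this transcript that lie within the gene's position in the files, and 10.72% of its coding bases. The FPKM covers the whole gene and is not specific for exon 4, so the gene's level is a weak check of the genotype labels. Reads over exon 4 alone were not analysed here.

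**Figure D1:**
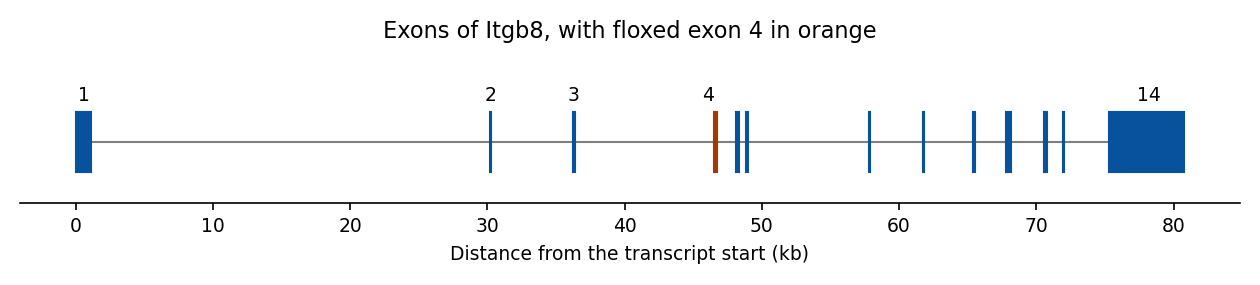
Exons of the main Itgb8 transcript (boxes) against distance from the transcript start in kb, with introns as a line. Exon 4, in orange, is 1 of 14 exons and holds 247 bases, so that the gene-level FPKM rests mostly on the exons in blue.

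Itgb8, on chromosome 12 from 119162803 to 119238276, did not fall to 0 in any β8ITG-cKO library. WT LCs held 7.26, 10.78 and 8.42 FPKM at 0 h and 9.08, 8.38 and 9.58 FPKM at 24 h. β8ITG-cKO LCs held 6.83, 4.58 and 7.31 FPKM at 0 h and 9.28, 11.83 and 10.28 FPKM at 24 h. The β8ITG-cKO 0 h libraries reached the range of WT 0 h only with replicate 3, whose 7.31 FPKM lay above the lowest WT 0 h value, and the β8ITG-cKO 24 h libraries overlapped those of WT 24 h. At 0 h the log2 difference of β8ITG-cKO from WT was -0.45 (standard error 0.19, adjusted p = 0.209, limma-trend on log2(FPKM + 1) with Benjamini-Hochberg adjustment over all genes tested, as for every adjusted p of a gene given here). At 24 h it was 0.19 (95% interval -0.13 to 0.51, adjusted p = 0.486). The gene-level FPKM of the genotypes overlapped at both times, and each direction between genotypes given here rests on the labels.

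From 0 h to 24 h PCS, Itgb8 changed by 0.04 in WT LCs (adjusted p = 0.873), a sign that turned to -0.20 when libraries were rescaled to the same median. In β8ITG-cKO LCs it rose by 0.68 on the log2 scale, from 6.24 ± 1.46 to 10.5 ± 1.29 FPKM (SD, n = 3 each; adjusted p = 0.0132), with all 3 libraries at 24 h above all 3 at 0 h. After rescaling, this rise was 0.41 with an adjusted p of 0.0734. The 4 libraries with the largest photoreceptor sums had 9.28 to 11.83 FPKM of Itgb8, while the other 8 had 4.58 to 9.58 FPKM. Within WT 0 h, the library with the largest photoreceptor sum, replicate 2, also had the most Itgb8. Within β8ITG-cKO 0 h, the library with the smallest sum, again replicate 2, had the least. Other orders within groups ran the opposite way. In WT 0 h, replicate 3 had a sum of 169 and 8.42 FPKM of Itgb8, beside 411 and 7.26 FPKM in replicate 1. In β8ITG-cKO 0 h, replicate 1 had the largest sum (397) but less Itgb8 than replicate 3. In β8ITG-cKO 24 h, replicate 2 had the smallest sum (991) and the most Itgb8 (11.83 FPKM). In WT 24 h LCs, however, Itgb8 was at 8.38 to 9.58 FPKM beside the lowest photoreceptor sums of any group. The part of photoreceptor RNA in the Itgb8 values was not tested. Without WT 0 h replicate 2, Itgb8 differed from WT by -0.31 at 0 h (adjusted p = 0.375) and changed by 0.18 in WT LCs over time (adjusted p = 0.447). The 0 h difference was smallest without β8ITG-cKO 0 h replicate 2, at -0.27 (adjusted p = 0.465), and ranged from -0.56 to -0.27 over the 6 libraries left out in turn.

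**Figure D2:**
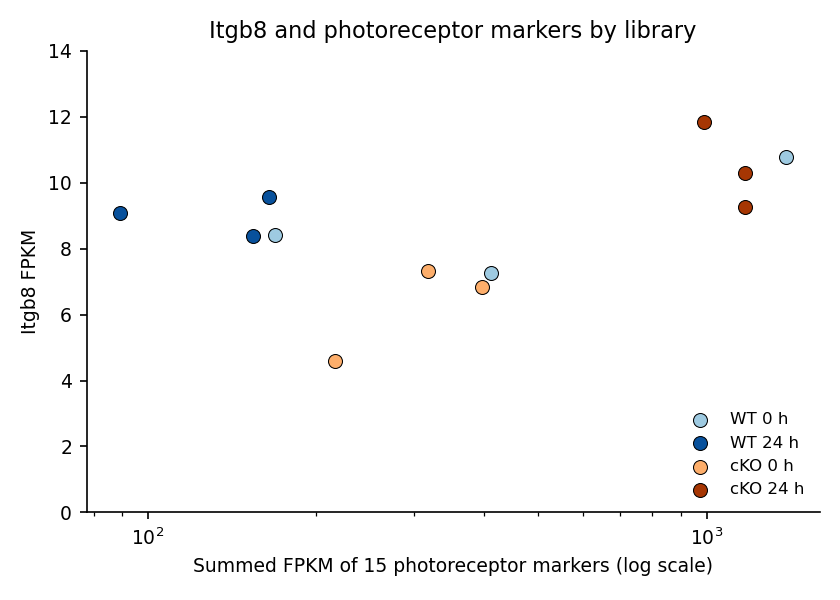
Itgb8 FPKM (vertical axis) against the summed FPKM of 15 photoreceptor markers (horizontal axis, log scale), 1 point per library, colored by condition. The 3 β8ITG-cKO 24 h libraries and WT 0 h replicate 2 lie to the right at 9.28 to 11.83 FPKM, and WT 24 h lies to the left at 8.38 to 9.58 FPKM.

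Itgav, the α subunit shared by all these pairs, lies on chromosome 2 from 83724108 to 83806917. In the WT libraries its FPKM were 29.85, 27.67 and 30.04 at 0 h and 67.49, 72.21 and 52.63 at 24 h. In β8ITG-cKO LCs they were 30.57, 33.24 and 32.52 at 0 h and 56.91, 57.88 and 46.19 at 24 h. Every 24 h library thus lay above every 0 h library. Itgav rose by 1.10 on the log2 scale in WT LCs (2.2-fold, standard error 0.16, adjusted p = 0.00264) and by 0.72 in β8ITG-cKO LCs (1.67-fold, standard error 0.11, adjusted p = 0.00153). Itgav and Itgb1 stand on a list of fibrosis genes that the study chose on these libraries, so their rise here is no independent evidence of its direction.

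Itgb1, on chromosome 8 from 128684732 to 128733579, moved with Itgav. WT LCs held 41.14, 39.40 and 41.16 FPKM of it at 0 h and 142.36, 147.49 and 77.70 FPKM at 24 h. β8ITG-cKO LCs held 47.09, 54.37 and 53.15 FPKM at 0 h and 88.65, 104.67 and 97.14 FPKM at 24 h. The rise was 1.51 in WT LCs (3.02-fold, standard error 0.25, adjusted p = 0.00424) and 0.90 in β8ITG-cKO LCs (1.88-fold, standard error 0.10, adjusted p = 0.000401). WT 24 h replicate 3 was the lowest library of its group for both genes and lay below every β8ITG-cKO 24 h library for Itgb1. Over the 12 libraries the correlation of log2(FPKM + 1) between Itgav and Itgb1 was 0.973 (Pearson), a description of points that fall into 2 time points.

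Itgb5, on chromosome 16 from 33829665 to 33949338, went the other way. Its 0 h libraries held 106.96, 98.76 and 102.27 FPKM in WT LCs, whereas the 24 h libraries held 89.78, 57.51 and 68.17 FPKM. In β8ITG-cKO LCs the FPKM were 139.03, 164.22 and 140.38 at 0 h and 59.94, 68.68 and 74.49 at 24 h. It fell by 1.12 on the log2 scale in β8ITG-cKO LCs (standard error 0.12, adjusted p = 0.000259), to 0.458 of its 0 h mean. In WT LCs the log2 difference was -0.53 (standard error 0.18), and the adjusted p was 0.0623. That call for WT depended on the fit: the adjusted p was 0.0204 after rescaling, 0.0169 in 1 fit over all 12 libraries and 0.0263 without WT 24 h replicate 1.

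Itgb3 and Itgb6, which encode the β subunits of the vitronectin receptor αVβ3 and of the epithelial TGF-β activator αVβ6, were near 0 throughout. Itgb3, on chromosome 11 from 104608000 to 104670476, ranged from 0.016 to 0.233 FPKM over the 12 libraries. Itgb6, on chromosome 2 from 60598292 to 60722603, was listed at 0 in β8ITG-cKO 24 h replicate 2 and never exceeded 0.11 FPKM. Neither reached the mean of 0.5 FPKM needed to enter the tests, so 4 of the 6 genes were tested. With no such filter, Itgb3 had an adjusted p of 0.421 over time in WT LCs and 0.114 in β8ITG-cKO LCs, and Itgb6 one of 0.266 between the genotypes at 24 h.

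**Figure D3:**
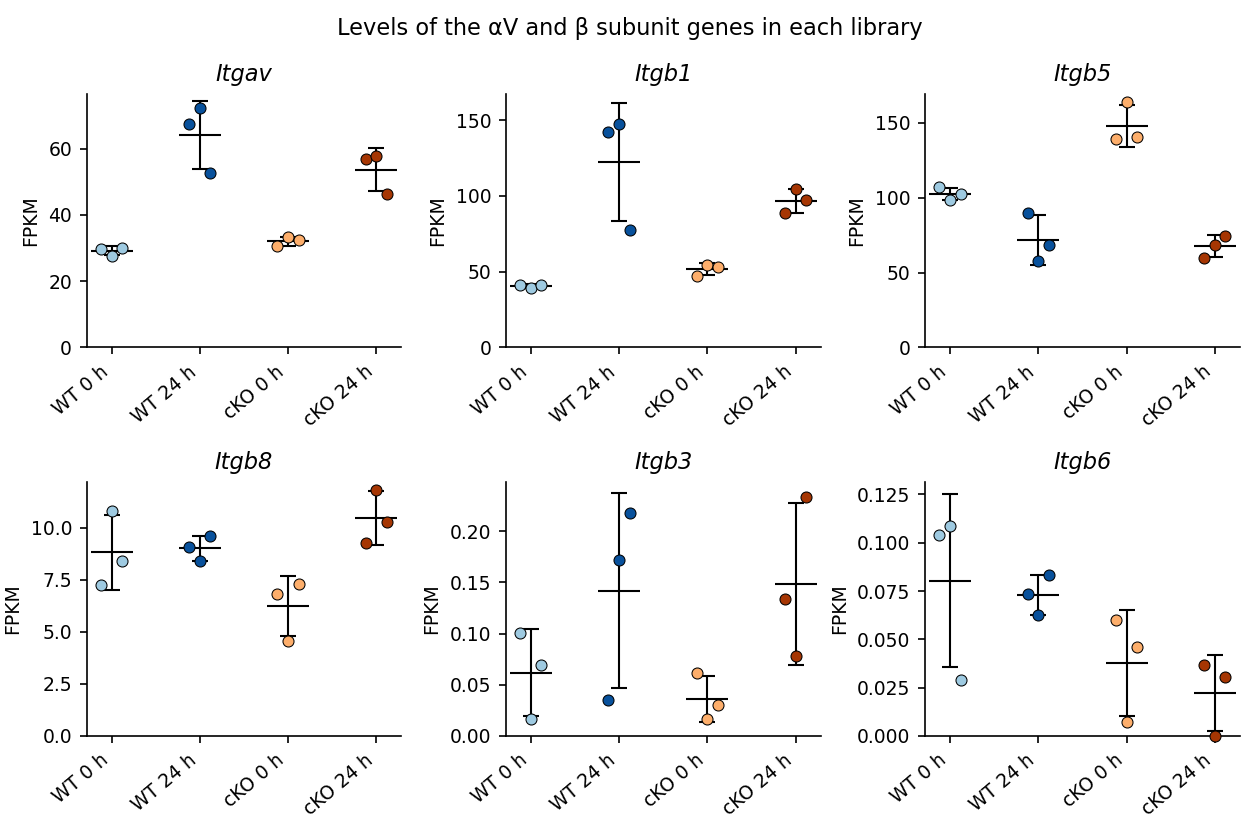
FPKM of the 6 genes in each of the 12 libraries (points, linear axes from 0, scaled for each gene), with the mean (horizontal line) and SD (bars) of 3 libraries per condition. Itgav and Itgb1 are higher in all 24 h libraries than in any 0 h library, Itgb5 is lower in all of them, and Itgb3 and Itgb6 stay at or below 0.233 FPKM.

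Counted by comparison, 2 of the 4 genes tested passed an adjusted p of 0.05 between 24 h and 0 h in WT LCs, both upward. In that comparison 29.7% of all 15146 genes tested passed, 20.9% upward and 8.81% downward. In β8ITG-cKO LCs all 4 passed, 3 upward and 1 downward, where 46.1% of 15237 genes passed, 35.4% upward and 10.7% downward. The median change over all genes was 0.16 in WT LCs and 0.23 in β8ITG-cKO LCs and moved to -0.05 and -0.0011 after rescaling, under which Itgav and Itgb1 still passed in both genotypes and Itgb5 in β8ITG-cKO LCs. If the study's criteria were added (1 group mean more than 2 times the other, 2 FPKM or more in the higher group, and means more than 2 FPKM apart), 2 genes passed in WT LCs, Itgav and Itgb1, and 1 in β8ITG-cKO LCs, Itgb5, where 14.3% and 15.1% of all genes passed.

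Between the genotypes at 24 h PCS, 0 of the 4 genes passed with limma-trend, and 0 had an unadjusted p under 0.05, where 6.29% of 15366 genes passed, 5.64% upward and 0.644% downward, and 3.66% met the study's criteria. The log2 difference of β8ITG-cKO from WT was -0.25 for Itgav (95% interval -0.64 to 0.14, adjusted p = 0.462), from 64.1 ± 10.2 FPKM in WT to 53.7 ± 6.49 FPKM (SD, n = 3 each). With 1 library left out it ranged from -0.38 without WT 24 h replicate 3 (adjusted p = 0.161) to -0.14 without β8ITG-cKO 24 h replicate 3 (adjusted p = 0.766), with -0.16 without WT 24 h replicate 2 (adjusted p = 0.703). For Itgb1 it was -0.28 (95% interval -0.87 to 0.31, adjusted p = 0.583), from 123 ± 38.9 to 96.8 ± 8.02 FPKM (SD, n = 3 each). That value moved with single WT 24 h libraries: it was -0.58 without replicate 3 (adjusted p = 0.0507), -0.15 without replicate 1 (adjusted p = 0.811) and -0.12 without replicate 2 (adjusted p = 0.856). Itgb5 differed by -0.07 (adjusted p = 0.883). The intervals leave room for a change of either sign in each of these genes.

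At 0 h PCS, 1 of the 4 genes passed, where 6.94% of 14708 genes passed, 4.18% upward and 2.75% downward. With the study's criteria 0 passed, where 2.52% of all genes did. Itgb5 was higher in β8ITG-cKO LCs by 0.52 (1.44-fold, standard error 0.11, adjusted p = 0.0335), at 148 ± 14.2 FPKM beside 103 ± 4.11 FPKM in WT (SD, n = 3 each). This call was not stable: leaving out any 1 of the 6 libraries gave 0.44 to 0.56 with an adjusted p of 0.0569 to 0.118, and rescaling gave 0.0514. Neither Itgb1, at a difference of 0.34 (adjusted p = 0.0856), nor Itgav, at 0.13 (adjusted p = 0.425), passed. Of 11 lens epithelium markers, 3 were higher in β8ITG-cKO LCs at 0 h, none was lower and 8 did not pass. Among the 3 were Foxe3 (0.89, adjusted p = 0.0278) and Mab21l1 (0.97, adjusted p = 0.00383). Pax6 (-0.03, adjusted p = 0.856) and Sox2 (-0.03, adjusted p = 0.887) were among the 8. Of 5 corneal epithelium markers tested, 2 were also higher, Aldh3a1 by 1.58 (adjusted p = 0.00801) and Tkt by 0.65 (adjusted p = 0.0281). The part of either list in the Itgb5 difference was not tested.

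Whether the 24 h change itself differed between the genotypes was tested as an interaction in 1 fit over 12 libraries. Of the 4 genes, 0 passed with limma-trend, and 2 had an unadjusted p under 0.05, where 9.39% of 15262 genes passed, 6.83% upward and 2.56% downward. The change in β8ITG-cKO LCs minus that in WT LCs was -0.38 for Itgav (adjusted p = 0.239), -0.62 for Itgb1 (adjusted p = 0.208), -0.58 for Itgb5 (adjusted p = 0.125) and 0.64 for Itgb8 (adjusted p = 0.131). The estimates thus put the smaller rise of Itgav and Itgb1 in β8ITG-cKO LCs, without passing the test. Single WT 24 h libraries changed these calls: without replicate 3 Itgb1 passed (-0.92, adjusted p = 0.00757), and without replicate 2 Itgb5 passed (-0.73, adjusted p = 0.0483).

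**Figure D4:**
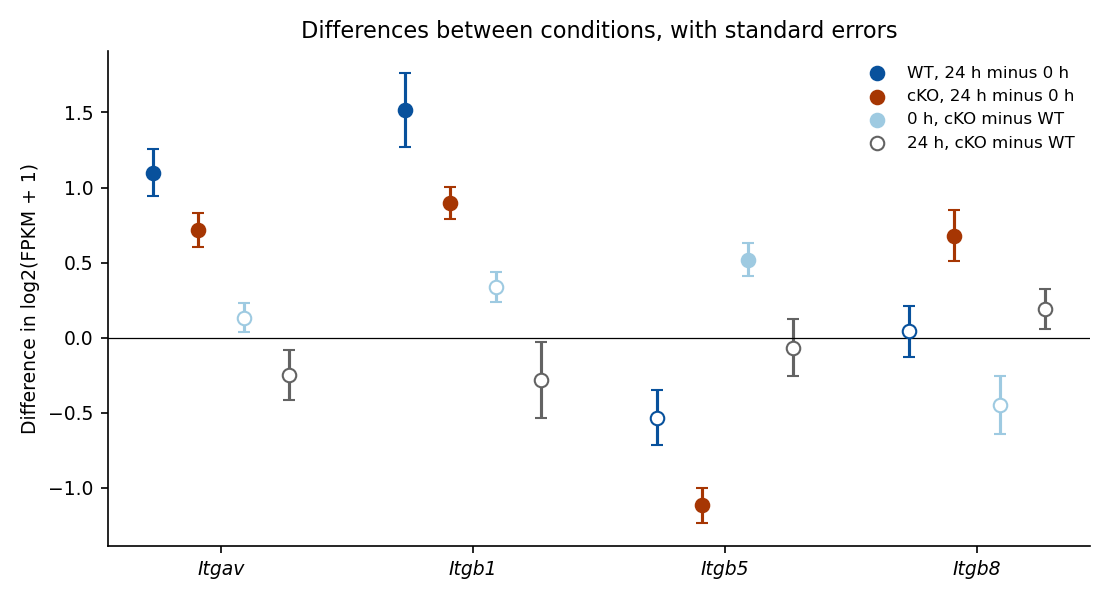
Differences in log2(FPKM + 1) for the 4 genes tested, with standard errors from limma-trend, in 4 comparisons (colors). Filled points have an adjusted p of at most 0.05: both time comparisons for Itgav and Itgb1, time in β8ITG-cKO LCs for Itgb5 and Itgb8, and genotype at 0 h for Itgb5.

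The order of the subunits by level turned over within 24 h. At 0 h the order was Itgb5, Itgb1, Itgav and Itgb8 in all 6 libraries. At 24 h Itgb1 lay above Itgb5 in all 6 libraries, by 1.14 to 2.56 times in WT LCs and 1.3 to 1.52 times in β8ITG-cKO LCs. Itgb5 and Itgav were then neighbors that overlapped in WT LCs, where Itgav was the higher in 1 of 3 libraries, but not in β8ITG-cKO LCs. Itgb1 lay above Itgav in 12 of 12 libraries, and Itgb8 below Itgav in 12 of 12, by 2.57 to 8.62 times. Among the β subunits, the share of Itgb1 in their summed FPKM went from 26.7% ± 0.375 to 59.3% ± 9.58 in WT LCs and from 25.1% ± 1.20 to 55.3% ± 1.73 in β8ITG-cKO LCs (SD, n = 3 each). The share of Itgb5 went from 67.4% ± 1.26 to 36.0% ± 8.49 and from 71.8% ± 1.86 to 38.6% ± 2.00 (SD, n = 3 each). Itgb8 held 5.81% ± 1.30 and 4.61% ± 1.34 in WT LCs at 0 h and 24 h, and 3.08% ± 0.888 and 5.97% ± 0.380 in β8ITG-cKO LCs (SD, n = 3 each). These are shares of RNA, not of receptor pairs.

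**Figure D5:**
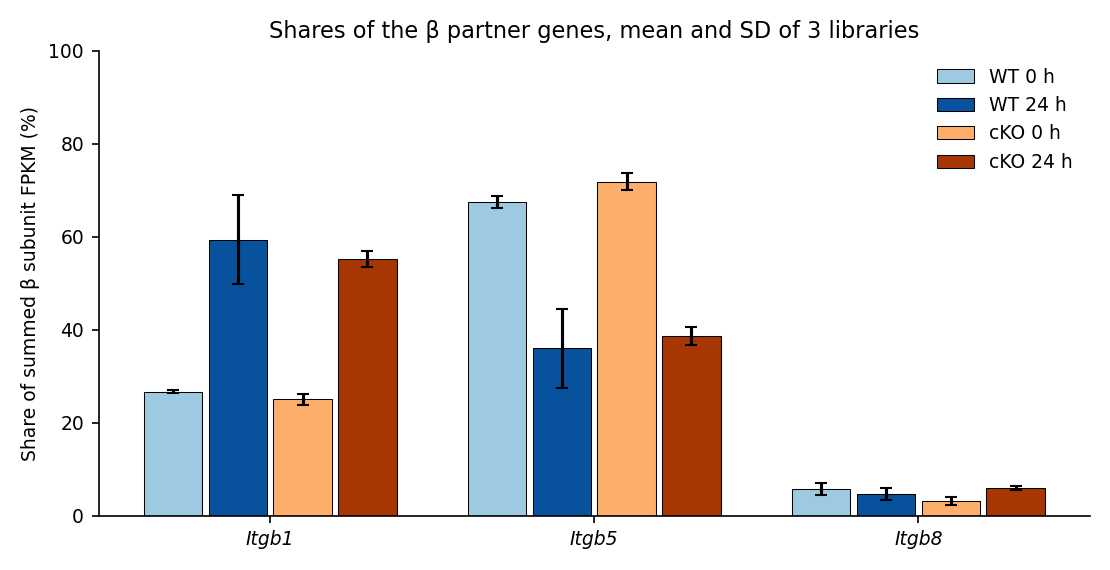
Share of each β subunit gene in the summed FPKM of Itgb1, Itgb3, Itgb5, Itgb6 and Itgb8 (percent), as the mean and SD of 3 libraries per condition. Itgb5 is the largest share at 0 h and Itgb1 at 24 h in both genotypes, while Itgb8 stays between 3.08% and 5.97%. Itgb3 and Itgb6 are not drawn, with group means below 0.1%.

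Each β subunit was also set against Itgav within a library, as the difference of their log2(FPKM + 1), a measure that for genes near 0 depends on the pseudocount. Labels were exchanged in an exact permutation test, two-sided, within genotype or within time, with 400 arrangements, a smallest possible p of 0.005 and Benjamini-Hochberg adjustment over 10 tests. Itgb5 relative to Itgav went down by 24 h by a mean difference of -1.73 (exact permutation adjusted p = 0.0167), -1.63 in WT and -1.83 in β8ITG-cKO LCs. Itgb1 relative to Itgav differed by 0.30 (exact permutation adjusted p = 0.0625), 0.42 in WT and 0.18 in β8ITG-cKO LCs. Itgb8 relative to Itgav differed by -0.55 (exact permutation adjusted p = 0.09), with -1.06 in WT LCs and -0.04 in β8ITG-cKO LCs. In linear terms there were 30.4 ± 7.61 FPKM of Itgb8 per 100 FPKM of Itgav in WT 0 h, 14.4 ± 3.40 in WT 24 h, 19.5 ± 4.98 in β8ITG-cKO 0 h and 19.7 ± 3.05 in β8ITG-cKO 24 h (SD, n = 3 each). For Itgb3 and Itgb6 the differences of -0.78 and -0.92 (exact permutation adjusted p = 0.0167 for each) follow Itgav, since both stay near 0. Their tests count among the 10 of the adjustment, so the other adjusted p values depend on them too. With a pseudocount of 0.1 the difference of Itgb3 was -0.25 (exact permutation adjusted p = 0.594). No ratio passed between the genotypes, the smallest exact permutation adjusted p being 0.142, for Itgb5 at 0.28.

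The markers of other cells changed over the same 24 h. Of all genes tested, 20.9% rose and 8.81% fell in WT LCs, and 35.4% rose and 10.7% fell in β8ITG-cKO LCs. Of 12 macrophage and leukocyte markers, 11 could be tested over time, of which 9 rose in WT LCs and 10 in β8ITG-cKO LCs. Their summed FPKM went from 8.83 to 14.9 per library at 0 h to 89.4 to 127 at 24 h in WT LCs, and from 9.6 to 16.7 to 59.9 to 97.4 in β8ITG-cKO LCs, with S100a8 listed at 0 in every 0 h library. Of 12 lens fiber markers, 11 fell in WT LCs and 12 in β8ITG-cKO LCs. Of 11 lens epithelium markers, 4 fell and 1 rose in WT LCs and 8 fell in β8ITG-cKO LCs, against 8 and 11 that fell, and none that rose, after rescaling. The part of these cells in the changes of Itgav, Itgb1 and Itgb5 was not tested, and in bulk RNA fewer cells of a type and less RNA per cell cannot be told apart. Platelets are known to carry αIIbβ3 at high levels. The FPKM of 8 platelet and megakaryocyte markers summed to 1.87 to 5.93 in the WT 0 h libraries and 9.82 to 15.9 in WT 24 h, and to 1.58 to 3.81 and 9.41 to 16.2 in β8ITG-cKO LCs. Pf4, encoding platelet factor 4, rose from 1.64 ± 0.618 to 9.60 ± 3.42 FPKM in β8ITG-cKO LCs (SD, n = 3 each; log2 change 1.99, adjusted p = 0.000557), whereas Itga2b and Gp9 reached at most 2.08 and 0.42 FPKM. The part of platelet RNA in the Itgb3 values was not tested.

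Of the β subunits that do not pair with αV, Itgb2, the β subunit of leukocytes, rose from 0.257 ± 0.0568 to 5.47 ± 0.943 FPKM in WT LCs (log2 change 2.35, adjusted p = 0.000212) and from 0.194 ± 0.0133 to 4.53 ± 0.754 FPKM in β8ITG-cKO LCs (2.20, adjusted p = 2.94e-05; SD, n = 3 each). Itgb4, the β subunit of hemidesmosomes, and Itgb7, another leukocyte subunit, reached at most 1.86 and 0.44 FPKM. Itgb1 and Itgb5 were thus the only β subunit genes of those listed above 12 FPKM in any library.

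Among 12 α subunits that pair with β1 or β3, 4 of the 6 tested rose in WT LCs and 3 of 7 in β8ITG-cKO LCs, and none fell, with median changes of 0.83 and 0.42 beside 0.16 and 0.23 over all genes, of which 20.9% and 35.4% rose. After rescaling, 3 rose in each genotype and 1 fell in β8ITG-cKO LCs. Itga7, which forms a laminin receptor with β1, rose from 2.20 ± 0.946 to 62.0 ± 19.0 FPKM in WT LCs (log2 change 4.29, adjusted p = 0.000146) and from 3.39 ± 0.0754 to 57.7 ± 2.25 FPKM in β8ITG-cKO LCs (3.74, adjusted p = 7.84e-07; SD, n = 3 each). Itga5, which forms the main fibronectin receptor with β1 and stands on the same fibrosis list of the study, rose from 4.24 ± 0.944 to 45.7 ± 24.9 FPKM in WT LCs (3.05, adjusted p = 0.000993) and from 3.21 ± 0.285 to 17.0 ± 1.94 FPKM in β8ITG-cKO LCs (2.09, adjusted p = 1.65e-05; SD, n = 3 each). The log2 rise of both exceeded that of Itgav and Itgb1 in each genotype. Between the genotypes at 24 h, 0 of the 8 α subunits tested passed with limma-trend and 2 had an unadjusted p under 0.05, Itga5 at -1.26 (adjusted p = 0.0692, or 0.0467 after rescaling) and, the other way, Itga4 at 0.66 (adjusted p = 0.0603). At 0 h, Itga3, a laminin receptor subunit, was higher in β8ITG-cKO LCs by 0.54 (adjusted p = 0.0319, or 0.0595 after rescaling).

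Of 33 genes for αV ligands, 22 could be tested over time in WT LCs, of which 12 rose and 5 fell, and 25 in β8ITG-cKO LCs, of which 13 rose and 5 fell. The median change was 0.53 and 0.57. Of all genes tested, 20.9% rose and 8.81% fell in WT LCs and 35.4% rose and 10.7% fell in β8ITG-cKO LCs. After rescaling, 8 rose and 6 fell in WT LCs and 11 rose and 6 fell in β8ITG-cKO LCs. Fn1, encoding fibronectin, rose from 2.75 ± 0.584 to 112 ± 67.0 FPKM in WT LCs (log2 change 4.73, adjusted p = 0.000511) and from 5.68 ± 0.395 to 79.3 ± 16.6 FPKM in β8ITG-cKO LCs (3.57, adjusted p = 5.2e-06; SD, n = 3 each). Tnc, encoding the matrix protein tenascin-C, rose by 6.07 in WT (adjusted p = 0.000258) and 5.83 in β8ITG-cKO LCs (adjusted p = 1.85e-06). Spp1, encoding osteopontin, rose by 3.65 (adjusted p = 0.000656) and 4.50 (adjusted p = 2.22e-06). Npnt, encoding nephronectin of basement membranes, fell by 2.91 and 2.84 (adjusted p = 0.000366 and 7.55e-05). Fgf1 fell by 1.96 and 1.88 (adjusted p = 0.000734 and 0.000248).

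Between the genotypes at 24 h, 3 of the 25 ligand genes tested were higher in β8ITG-cKO LCs and none lower: Vtn, encoding vitronectin, Adam23 and Edil3. Of all genes tested, 5.64% were higher and 0.644% lower. An unadjusted p under 0.05 with limma-trend was found for 9 of the 25, in both directions. For Vtn, WT LCs held 17.91, 34.06 and 13.35 FPKM at 0 h and 2.68, 8.21 and 5.56 FPKM at 24 h. β8ITG-cKO LCs held 11.94, 6.55 and 9.77 FPKM at 0 h and 21.36, 20.91 and 28.14 FPKM at 24 h. At 24 h all β8ITG-cKO libraries lay above all WT libraries, by 2.00 on the log2 scale (adjusted p = 0.0111), and the interaction was 3.06 (adjusted p = 0.00737). Of the 24 ligand genes tested for an interaction, 2 passed upward, Vtn and Cyr61 (1.96, adjusted p = 0.0171), and 1 downward, Tgfb1. Of all genes tested for it, 6.83% passed upward and 2.56% downward. Cyr61 was lower in β8ITG-cKO LCs at 0 h (-2.12, adjusted p = 0.00635) and differed by -0.16 at 24 h (adjusted p = 0.805). At 0 h, 1 of 22 ligand genes tested was higher, Fn1 (0.84, adjusted p = 0.0206), and 2 were lower, Cyr61 and Thbs1 (-1.01, adjusted p = 0.0218). Of all genes, 4.18% and 2.75% were. The highest libraries of Vtn were again those with the most photoreceptor RNA. Of 15 photoreceptor markers, 14 were higher in β8ITG-cKO LCs at 24 h, with sums of 991 to 1170 beside 89.2 to 165. The part of photoreceptor RNA in the Vtn difference was not tested. Adam23 was higher by 1.10 (adjusted p = 0.0111) and Edil3 by 0.99 (adjusted p = 0.0296). Both were low, with 24 h means in WT and β8ITG-cKO LCs of 0.0454 and 1.27 FPKM for Adam23 and 0.353 and 1.71 FPKM for Edil3. Adam23, Edil3, Itga4 and Parvb were named after their values were seen.

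Latent TGF-β is the cargo on which αVβ6 and αVβ8 act. Of 19 genes listed for it and its release, 16 were tested in WT LCs, of which 9 rose, and 17 in β8ITG-cKO LCs, of which 12 rose, and none fell, where 20.9% and 35.4% of all genes rose. The median change was 0.997 and 0.70. After rescaling, 9 rose and 2 fell in WT LCs and 10 of 16 rose and 1 fell in β8ITG-cKO LCs. Ltbp1, which ties latent TGF-β to the matrix, rose by 1.93 in WT (adjusted p = 0.000741) and 1.98 in β8ITG-cKO LCs (adjusted p = 5.68e-05), with an interaction of 0.04 (adjusted p = 0.941). Mmp14, a membrane protease known to work with αVβ8, rose by 1.41 (adjusted p = 0.000576) and 1.57 (adjusted p = 0.000118). Tgfb1, the main ligand of αVβ8, was measured at 13.82, 11.40 and 13.21 FPKM in WT 0 h, 45.37, 38.79 and 36.13 FPKM in WT 24 h, 16.81, 16.78 and 19.98 FPKM in β8ITG-cKO 0 h and 28.22, 31.14 and 29.51 FPKM in β8ITG-cKO 24 h. For Tgfb1 the difference of β8ITG-cKO from WT was -0.42 at 24 h (adjusted p = 0.123) and 0.45 at 0 h (adjusted p = 0.0655). The interaction for Tgfb1 was -0.87 (adjusted p = 0.0114), that is, a smaller rise in β8ITG-cKO LCs. Of the 16 genes tested for an interaction, 2 passed downward and 1 upward, where 2.56% and 6.83% of all genes did: Tgfb1, Tgfb2 (-0.58, adjusted p = 0.037, or 0.0573 after rescaling) and, upward, Plat (1.20, adjusted p = 0.0085), which encodes tissue plasminogen activator. Plat was lower in β8ITG-cKO LCs at 0 h (-1.36, adjusted p = 0.00383) and differed by -0.17 at 24 h (adjusted p = 0.589). Of the 14 genes tested at 0 h, 2 were lower, Plat and Thbs1, and 1 higher, Fn1, where 2.75% and 4.18% of all genes were. Tgfb3, the other TGF-β gene whose latency peptide binds αVβ8, was at 3.94 ± 1.42 and 5.30 ± 1.03 FPKM in WT LCs and at 5.73 ± 2.87 and 5.28 ± 0.235 FPKM in β8ITG-cKO LCs at 0 h and 24 h (SD, n = 3 each), and passed no comparison. Between the genotypes at 24 h, 0 of the 17 genes tested passed with limma-trend (1, Tgfb2, was lower after rescaling), and 3 had an unadjusted p under 0.05. Of all genes tested, 6.29% passed.

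Inside the cell, 20 of 37 genes tested for integrin activation and tail-binding adaptors rose and 1 fell in WT LCs, with a median change of 0.61, where 20.9% of all genes rose and 8.81% fell. In β8ITG-cKO LCs 25 of 38 rose and 2 fell, with a median of 0.48, where 35.4% and 10.7% did. After rescaling, 15 rose and 3 fell in WT LCs and 15 rose and 5 fell in β8ITG-cKO LCs. Actn1, encoding the actin cross-linker α-actinin 1, rose from 23.0 ± 0.780 to 196 ± 49.0 FPKM in WT LCs (log2 change 3.01, adjusted p = 0.000146) and from 30.9 ± 0.634 to 137 ± 2.71 FPKM in β8ITG-cKO LCs (2.12, adjusted p = 3.73e-06; SD, n = 3 each). For the interaction 9.39% of all genes passed, 6.83% upward and 2.56% downward. Of the 38 genes of this list 2 passed, Actn1 at -0.89 (adjusted p = 0.0264) and, the other way, Parvb, encoding β-parvin, at 0.88 (adjusted p = 0.0399, or 0.056 after rescaling). After rescaling 0 passed upward and 3 downward. Vcl, encoding vinculin, rose by 2.35 and 1.99 (adjusted p = 0.000537 and 9.8e-06). Tns2, encoding a tensin, fell by 0.95 in WT LCs (adjusted p = 0.0136), and Tln2, encoding talin 2, fell by 0.77 in β8ITG-cKO LCs (adjusted p = 0.00131). Between the genotypes at 24 h, 0 of 38 passed with limma-trend, where 6.29% of all genes did, and 7 had an unadjusted p under 0.05.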

How the data were processed

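RNA of 12 libraries, 3 per condition, was sequenced by the authors as read pairs from total RNA and deposited as FPKM per gene and library from Cuffdiff 2.2.1, in 4 tables that share libraries and agree in 550308 of 550308 repeated values. The submitters' processing notes also name cutadapt 1.12, TopHat2 2.1.0 and mm10 (GRCm38.p5). The tables also hold the authors' mean FPKM per group (8 columns) and, from Cuffdiff, group-level FPKM, fold changes with their p-values and q-values, none of which was used. Each pair of conditions was fitted over all genes with limma 3.58.1 (limma-trend, R 4.3.3) on log2(FPKM + 1), for genes at 0.5 FPKM or more on average, and adjusted by the Benjamini-Hochberg method. Fold changes on that scale understate changes of low genes. The interaction used 1 fit over 12 libraries. The fit was tested on simulated data. Members and gene lists were chosen with earlier results of these data known. Genes of the lists were named if fixed by name (Fn1, Vtn, Spp1, Tnc, Tgfb1, Tgfb3, Ltbp1, Mmp14) or among the 2 largest rises or falls of a list past the threshold at a mean of at least 2 FPKM, of which the text gives a part. Alternatives covered the pseudocount, filter, scaling, replicate block, criteria, joint fit and each library left out. Other tools were Python 3.11.15, numpy 2.4.6, pandas 2.3.3 and matplotlib 3.10.9.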

Additional observations from a re-analysis of the deposited data

How the results depend on the processing

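The rises of Itgav and Itgb1 over 24 h in both genotypes and the fall of Itgb5 in β8ITG-cKO LCs kept their direction and an adjusted p of at most 0.05 under every alternative that keeps the call rule. The number of genes that passed over time in β8ITG-cKO LCs went from 4 to 1 with the study's criteria. At 0 h PCS the count between genotypes went from 1 to 0 with no filter on low values, after rescaling, with the replicate block, with the study's criteria, in 1 fit over all 12 libraries and in each of the 6 fits without 1 library (0 to 0). For the interaction, leaving out 1 library gave 0 to 1 genes. Same-numbered libraries did not deviate together (correlations of -0.249 to 0.0962). These correlations rest on 3 libraries per group and cannot settle whether same-numbered libraries shared a batch. With the replicate number as a block, Itgb5 in WT LCs over time had an adjusted p of 0.0473 and Itgb5 between genotypes at 0 h one of 0.107. Itgb8 in WT LCs over time turned to -0.20 after rescaling and to -0.076 without WT 0 h replicate 1 (range -0.076 to 0.18). Itgb5 between genotypes at 24 h turned to 0.11 without WT replicate 1 and 0.018 without β8ITG-cKO replicate 1 (range -0.21 to 0.11). With 1 library left out, the time difference of Itgb1 relative to Itgav ranged from 0.25 to 0.38 (exact permutation adjusted p of 0.0125 to 0.15), and that of Itgb8 from -0.65 to -0.46 (0.025 to 0.17). Between genotypes the ratio to Itgav ranged from -0.14 to 0.030 for Itgb8, from -0.033 to 0.14 for Itgb3 and from -0.061 to 0.063 for Itgb6. With a pseudocount of 0.1, the ratio of Itgb3 to Itgav was -0.015 between genotypes and -0.25 over time (exact permutation adjusted p = 0.594).

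With 3 libraries per group the precision is limited by their spread. The FPKM of Itgb3 and Itgb6 are too low for any statement on a difference.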

Other observations

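The genes whose log2(FPKM + 1) followed each subunit most closely over the 12 libraries, among 10879 genes at 2 FPKM or more on average, were looked up as a description. The points share their time point and genotype, so that any gene with a change of the same kind ranks high. For Itgav they were Flna (Pearson r = 0.99), encoding the actin cross-linker filamin A, Elk3 (0.989), Gm16385 (0.989), Myh9 (0.987), encoding the heavy chain of non-muscle myosin IIA, and Rai14 (0.985). Flna went from 33.6 to 155 FPKM on average in WT LCs and from 39.3 to 110 FPKM in β8ITG-cKO LCs. For Itgb1 they were Sept11 (0.994), encoding a septin, Eif4a1 (0.989), encoding a helicase of translation initiation, Cldn12 (0.989), Ssrp1 (0.988) and Ipo7 (0.987). For Itgb5 they were Pdgfrb (0.991), encoding a PDGF receptor, Sparc (0.986), encoding a matrix protein, Foxe3 (0.981), a transcription factor gene of lens epithelium, Nnat (0.98) and Plxdc2 (0.98). Sparc had 619 and 415 FPKM in WT LCs at 0 h and 24 h and 893 and 396 FPKM in β8ITG-cKO LCs. Itgb8 had no neighbor as close: Kat7 (0.895), Usp6nl (0.893), Chd2 (0.892), Ubxn2a (0.883) and Sergef (0.88), each within 1.82 to 12.8 FPKM as group means.

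Other marker lists gave the counts below. Beside them, 20.9% of all genes tested rose and 8.81% fell over time in WT LCs, and 35.4% rose and 10.7% fell in β8ITG-cKO LCs. At 24 h, 5.64% of all genes were higher and 0.644% lower in β8ITG-cKO LCs. Of 10 Müller glia markers tested, 2 rose and 4 fell over time in WT LCs and 5 rose and 2 fell in β8ITG-cKO LCs, and 1, Slc1a3, was higher in β8ITG-cKO LCs at 24 h (1.43, adjusted p = 0.0348, limma-trend). Several of these are also expressed by LCs, such as Vim at 1490 FPKM in WT 0 h. Of the corneal epithelium markers, 2 of 7 fell in WT LCs and 2 of 4 in β8ITG-cKO LCs, and of the pigment cell markers 2 of 7 in each. Platelet markers rose in 2 of 3 and 1 of 2 tested, endothelial markers in 0 of 1 and 3 of 3, and fibroblast markers in 1 of 5 and 2 of 4, with 2 and 1 fibroblast markers falling, in WT and β8ITG-cKO LCs. At 24 h between the genotypes, Kdr was higher in β8ITG-cKO LCs (1.56, adjusted p = 0.0173, limma-trend), and Cdh1 and Pmel were lower (-0.92 and -1.18, adjusted p = 0.00982 and 0.0129).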
